A study of Mus musculus with 10 samples.

Results

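Heat shock proteins, J-proteins and the chaperonins are the protein-folding machinery of the cell, and 89 of the 24411 genes in the tables belonged to them by name. They were chosen by symbol: Hsp followed by a digit or a letter from a to h, Dnaja, Dnajb or Dnajc followed by a number, the subunits Cct2 to Cct8, and Tcp1, Hsf1, Hsf2, Bag3 and Stip1. From common knowledge of their products, 44 were placed in the cytosol, 14 in the endoplasmic reticulum (ER), 8 in mitochondria, 2 (the heat shock factors) in the nucleus and 21 in a mixed remainder, which also holds the nuclear J-proteins Dnajc8, Dnajc9 and Dnajc17. For 3 of the remainder, Hspb11 (an intraflagellar transport subunit), Hspbap1 and Hspg2 (perlecan, a matrix proteoglycan), only the name matched. The places were not checked against a reference, so the remainder may hold genes of the other places.

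HSP70 binds short hydrophobic stretches of unfolded proteins in a cycle driven by ATP. J-proteins, also called HSP40s, bring it substrates and trigger ATP hydrolysis, and nucleotide exchange factors such as the HSP110 and BAG proteins let the substrate go. HSP90 receives part of these clients through the adaptor HOP, encoded by Stip1, and the ring-shaped chaperonin CCT folds actin, tubulin and other proteins inside its chamber. The ER has its own HSP70 and HSP90, and the mitochondrial matrix its own HSP70 and the chaperonin HSP60 with its lid HSP10, each served by J-proteins of their compartment. Heat shock factors such as HSF1 drive the cytosolic genes under stress, and the unfolded protein response drives those of the ER. Inducible HSP70 is among the earliest gene products of the mouse embryonic genome.

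The study asked what loss of Mettl3, which encodes the methyltransferase for N6-methyladenosine in RNA, does to the transcriptome of preimplantation embryos. Mouse embryos made by in vitro fertilization of superovulated oocytes were injected as zygotes, 3 to 6 h after insemination, with an antisense oligonucleotide (ASO), grown in KSOM medium and collected as morulae at 72 h. The Mettl3-ASO group (5 libraries) received an oligonucleotide against Mettl3 and the ASO-Control group (5 libraries) a non-targeting one; each library pooled 10 embryos, and uninjected embryos were not analysed here. Polyadenylated RNA was amplified as full-length cDNA with the SMART-Seq v4 PLUS kit. Replicates 3 to 5 of both groups are marked as batch 2, and replicates 1 and 2 carry no such mark and are called untagged here; the ICR strain is given for those 4 untagged libraries. Both groups share the injection, so its own effect is in both.

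Mettl3 itself stood at 0, 0, 0, 0.04 and 0.03 FPKM (fragments per kilobase of transcript, scaled to library size) in Mettl3-ASO replicates 1 to 5, against 10.6, 12.7, 6.58, 7.77 and 6.62 FPKM in ASO-Control replicates 1 to 5. The groups did not overlap (two-sided exact permutation test within batches, p = 0.0167, the smallest that 120 relabellings can give). Total estimated counts ran from 21412857 to 32327283 in the 6 libraries of batch 2 and from 9905830 to 13530284 in the 4 untagged ones. All 12 genes listed as markers of preimplantation embryos, which include the oocyte genes Zp3 and Bmp15, reached 1 FPKM in some library. Sox2 reached at most 2.49 FPKM and Bmp15 at most 1.76 FPKM, and neither was tested. The listed genes moved with the group. Of 10 tested, 3 were higher in Mettl3-ASO (Nanog, Dppa3 and Zp3), 5 were lower (Pou5f1, Klf5, Cdx2, Krt8 and Krt18) and 2 were not called. The oocyte coat gene Zp3 stood at 5.20 to 8.72 FPKM in Mettl3-ASO, against 1.12 to 2.81 FPKM in ASO-Control libraries (adjusted p = 5.92e-05), and the keratin gene Krt18, of trophectoderm, at 9.71 to 111 FPKM in Mettl3-ASO, against 87.7 to 477 FPKM in ASO-Control libraries (adjusted p = 1.05e-04). Their summed level, mostly Dppa3, was 23893 to 44659 FPKM in Mettl3-ASO and 17271 to 26409.9 FPKM in ASO-Control libraries. The summed level of 10 cumulus and granulosa markers was 0.30 to 0.71 FPKM in Mettl3-ASO and 0.09 to 0.40 FPKM in ASO-Control libraries, with 5 of them at 0 throughout, and that of 6 sperm markers was 0.25 to 3.04 FPKM in Mettl3-ASO and 0.51 to 2.22 FPKM in ASO-Control libraries. The part of these 3 marker lists in the results was not tested. Mettl3-ASO replicate 1 stood nearest to the controls. Its mean correlation with the 5 ASO-Control libraries, over tested genes on the log2(CPM + 1) scale, was 0.916, against 0.874 to 0.900 for the other 4 Mettl3-ASO libraries. Whether the libraries go back to different fertilizations is not stated, and the spread that the p-values rest on may be technical. In pooled embryos, fewer cells of a type and less RNA per cell cannot be told apart.

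The promoters of 5 genes that mark the main patterns are printed here, from 250 bases before to 50 bases after each start in RefSeq (build GRCm38.p6), in the direction of the gene. They are the joint start region of the mitochondrial chaperonin genes Hspe1 and Hspd1, which were lower in Mettl3-ASO embryos, the ER genes Hspa5 and Hsp90b1 (lower) and Dnajb9 (higher), and the inducible HSP70 gene Hspa1b (higher). Capitals mark matches, on either strand, to a heat shock element searched as GAA, any 2 bases, TTC, any 2 bases and GAA, and to an ER stress response element searched as CCAAT, any 9 bases and CCACG.
Hspe1, chr1:55087898-55088197, plus strand: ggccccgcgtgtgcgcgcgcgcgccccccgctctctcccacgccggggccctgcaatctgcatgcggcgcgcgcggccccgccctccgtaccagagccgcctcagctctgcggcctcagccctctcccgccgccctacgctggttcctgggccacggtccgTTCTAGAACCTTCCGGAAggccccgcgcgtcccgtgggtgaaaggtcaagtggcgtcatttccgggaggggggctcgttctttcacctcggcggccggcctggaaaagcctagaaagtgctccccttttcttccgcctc
Hspa5, chr2:34771840-34772139, plus strand: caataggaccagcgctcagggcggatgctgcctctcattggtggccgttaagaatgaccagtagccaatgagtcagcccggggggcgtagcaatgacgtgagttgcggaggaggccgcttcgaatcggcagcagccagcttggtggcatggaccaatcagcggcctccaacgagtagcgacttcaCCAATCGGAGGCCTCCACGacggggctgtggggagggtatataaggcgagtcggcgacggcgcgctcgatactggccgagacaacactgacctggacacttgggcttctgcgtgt
Hsp90b1, chr10:86705395-86705694, minus strand: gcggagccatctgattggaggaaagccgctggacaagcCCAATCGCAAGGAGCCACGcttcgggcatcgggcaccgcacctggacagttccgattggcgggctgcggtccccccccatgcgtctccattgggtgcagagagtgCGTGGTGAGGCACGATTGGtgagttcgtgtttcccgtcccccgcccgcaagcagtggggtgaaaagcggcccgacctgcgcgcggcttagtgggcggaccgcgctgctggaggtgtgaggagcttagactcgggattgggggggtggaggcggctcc
Dnajb9, chr12:44210019-44210318, minus strand: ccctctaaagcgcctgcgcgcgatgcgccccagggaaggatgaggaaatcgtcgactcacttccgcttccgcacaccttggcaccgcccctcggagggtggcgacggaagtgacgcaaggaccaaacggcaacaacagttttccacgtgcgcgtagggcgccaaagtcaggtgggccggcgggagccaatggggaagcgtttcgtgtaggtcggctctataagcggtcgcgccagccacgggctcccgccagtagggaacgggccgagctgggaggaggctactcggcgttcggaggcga
Hspa1b, chr17:34959189-34959488, minus strand: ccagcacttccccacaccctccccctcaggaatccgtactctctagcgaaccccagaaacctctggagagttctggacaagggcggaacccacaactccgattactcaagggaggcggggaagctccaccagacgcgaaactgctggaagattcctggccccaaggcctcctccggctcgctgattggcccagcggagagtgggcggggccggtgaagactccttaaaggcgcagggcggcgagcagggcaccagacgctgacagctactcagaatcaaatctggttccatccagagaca

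The heat shock element in the Hspe1 window lies between the head-to-head RefSeq starts of Hspe1 and Hspd1. It matches on both strands, where its letters overlap. In the GENCODE loci given below the 2 genes overlap (7.6% of the exon bases of Hspe1), and there the element lies inside Hspd1. Of the 92 windows of the 73 members with a promoter entry, 6 held it (genes Dnajb6, Hspd1, Hspe1 and Hsph1), against 198 of all 32851 windows (0.603%). Counted by gene, 4 of 73 members held it, against 179 of 27025 genes. Hspd1 and Hspe1 share the same site, and windows of 1 gene can overlap, so these windows are not separate sites. The ER element stands once in the Hspa5 window and at 2 places in that of Hsp90b1, once on each strand. It was found in 3 of the 92 member windows (Dnajc3, Hsp90b1 and Hspa5) and in 39 of all windows (0.119%). The windows of Dnajb9 and Hspa1b held neither exact run of letters. The search allowed no mismatch, so a missing match does not show that an element is absent. A match describes the letters alone.

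Of the 89 members, 71 passed the filter of a mean of at least 1 FPKM over the 10 libraries and were tested. In Mettl3-ASO embryos 19 were higher and 22 lower than in ASO-Control embryos, at an adjusted p under 0.05 in edgeR's quasi-likelihood test, adjusted over all 9522 tested genes. These 41 are 57.7% of the tested members. FPKM levels are given as mean ± SD over the 5 libraries of a group (n = 5 each) and log2 fold changes, of Mettl3-ASO over ASO-Control, as estimate ± standard error. Among all tested genes 49.4% were called, 25.4% higher and 24.0% lower. Counts by place follow, and differences between places were not tested. In the cytosol 10 of 35 tested members rose and 9 fell, with a median log2 fold change of −0.004 that took either sign across settings. In the ER 2 of 12 rose and 5 fell (median −0.41). Of the 8 placed in mitochondria none rose and 5 fell (median −0.38). This count rests on unchecked places. Dnajc28 (higher) and Dnajc4 (not called) were counted in the remainder and may belong with these 8. Among 14 of the mixed remainder 7 rose and 2, both nuclear J-protein genes, fell (median 0.30). The median over all 9522 genes was 0.01. Without Mettl3-ASO replicate 1, 19 members were higher and 25 lower.

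**Figure D1:**
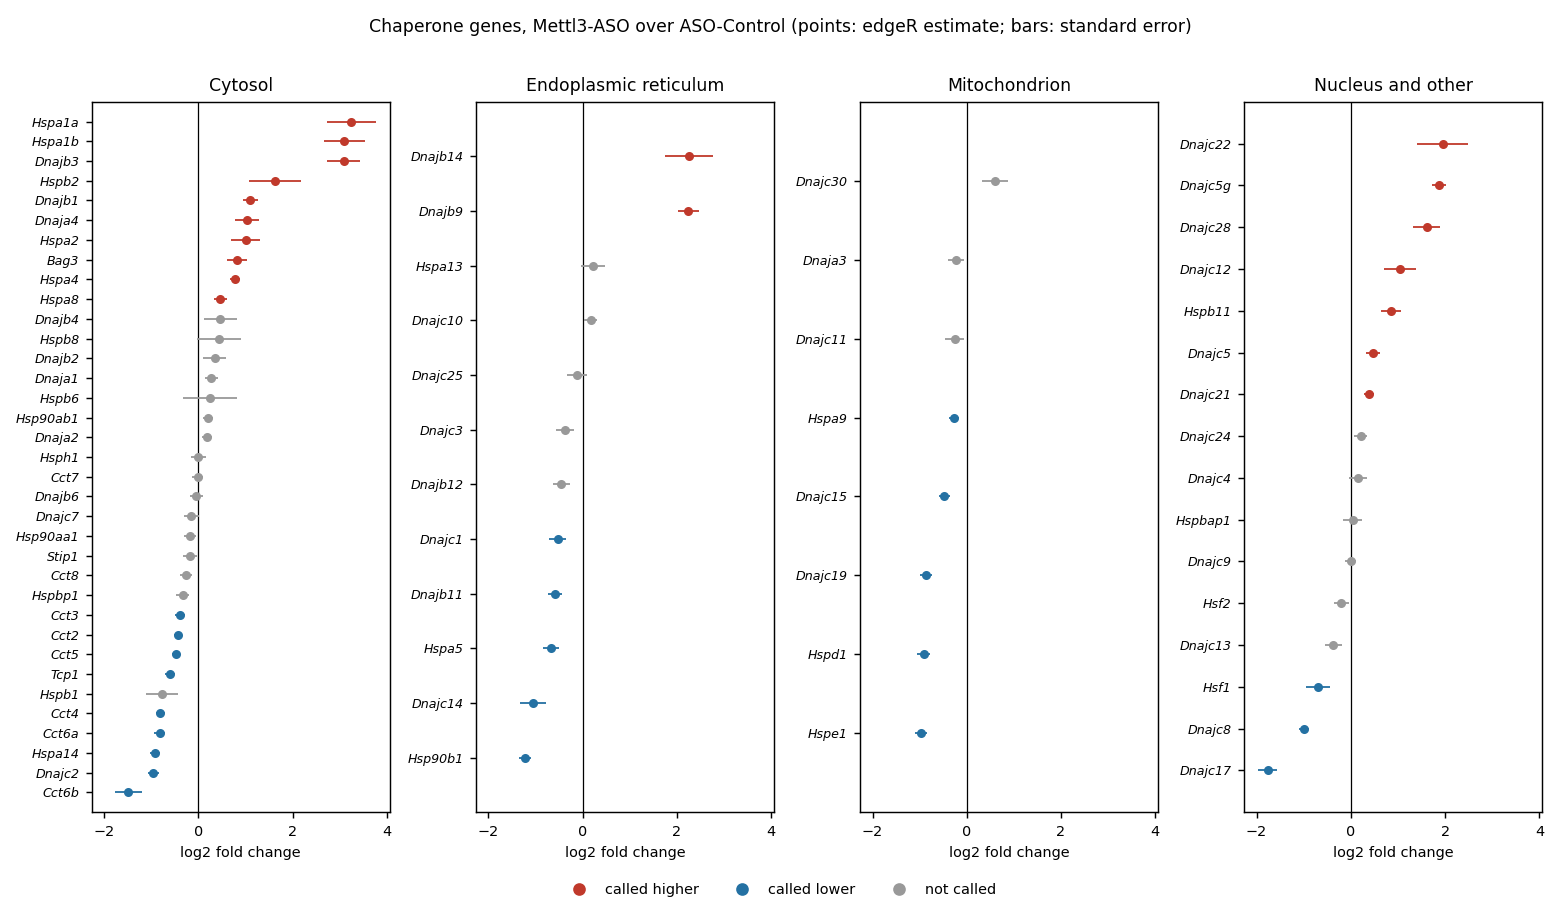
Log2 fold change of Mettl3-ASO over ASO-Control (x axis) for the 71 tested members, 1 row a gene, in panels by place in the cell; points are edgeR estimates and bars standard errors. The changes over 2 on the log2 scale are Hspa1a, Hspa1b and Dnajb3 in the cytosol and Dnajb14 and Dnajb9 in the ER. None of the members placed in mitochondria was called higher. Dnajc28, called higher, was counted in the remainder, and its place was not checked.

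Among members, 13 were called and at least 2-fold higher and 4 called and at least 2-fold lower, against 13.4% and 8.67% of all tested genes. Hspa1a, Dnajc28 and Dnajc22, counted among the higher members, passed the filter only through the Mettl3-ASO libraries. The FPKM of the groups did not overlap for 10 members that were higher and 13 that were lower in Mettl3-ASO, against 15.0% and 10.6% of all tested genes (25.6% in either direction).

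The inducible HSP70 pair rose most. Hspa1b (chr17:34956436-34959238, minus strand, GRCm38), an intronless gene of the heat shock response, stood at 8.36, 26.7, 4.90, 9.06 and 14.9 FPKM in Mettl3-ASO replicates 1 to 5, against 3.10, 3.61, 1.16, 0.65 and 0.57 FPKM in ASO-Control replicates 1 to 5. Every Mettl3-ASO library lay above every ASO-Control library, and the highest, replicate 2, stood over 5 times the lowest, replicate 3. Its log2 fold change was 3.09 ± 0.43, 8.53-fold (adjusted p = 1.07e-04). Its neighbour and near-copy Hspa1a (chr17:34969190-34972156, minus strand, GRCm38) stood at 1.48, 6.44, 0.96, 1.79 and 3.33 FPKM in Mettl3-ASO replicates 1 to 5, against 0.62, 0.42, 0.28, 0.11 and 0.13 FPKM in ASO-Control replicates 1 to 5. Again the groups did not overlap, at a level several times lower, with a log2 fold change of 3.25 ± 0.52 (adjusted p = 2.95e-04). The ASO-Control mean of Hspa1a was 0.312 FPKM, so it passed the filter only through the Mettl3-ASO libraries. A filter met in this way favours a rise. The pair shares reads: 66.3% of the 50-base windows of Hspa1a and 62.3% of those of Hspa1b occur in other genes, most often in each other. The split between them is therefore uncertain. Counted as 1 feature, they held 345, 856, 420, 733 and 1009 counts in Mettl3-ASO replicates 1 to 5, against 123, 124, 106, 63 and 58 in ASO-Control replicates 1 to 5. The sum rose 8.69-fold (log2 fold change 3.12 ± 0.43, adjusted p = 1.04e-04). Part of the transcript of Hspa1a (19.0% of its exon bases) also lies opposite to the gene Gm20481.

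The constitutive HSP70 gene Hspa8 (HSC70), the most abundant member of that family, stood at 3875, 5957, 6573, 6336 and 4953 FPKM in Mettl3-ASO replicates 1 to 5, against 3312, 3944, 3921, 4331 and 4009 FPKM in ASO-Control replicates 1 to 5. All 5 Mettl3-ASO libraries lay above the ASO-Control mean of their batch, but replicate 1 fell inside the ASO-Control range. The log2 fold change was 0.47 ± 0.14 (adjusted p = 0.0159); the call was lost without Mettl3-ASO replicate 2 (adjusted p = 0.0542) and with no batch term (0.0888). About 39.4% of its 50-base windows recur in other genes, most often in Gm15459. Hspa2, an HSP70 of male germ cells, rose at low level to 3.12 ± 1.24 FPKM in Mettl3-ASO, against 1.53 ± 0.387 FPKM in ASO-Control libraries (adjusted p = 0.0155). Hspa14, a ribosome-associated HSP70, went the other way and stood at 94.9, 101, 101, 88.0 and 74.8 FPKM in Mettl3-ASO replicates 1 to 5, against 162, 186, 182, 165 and 156 FPKM in ASO-Control replicates 1 to 5. Its groups were far apart, with a log2 fold change of −0.92 ± 0.11 (adjusted p = 4.49e-05). Its partner on the ribosome, the J-protein gene Dnajc2 (zuotin), fell too, by a log2 change of −0.96 ± 0.12 (adjusted p = 4.63e-05), to 71.4 ± 17.7 FPKM in Mettl3-ASO, against 134 ± 16.8 FPKM in ASO-Control libraries. These 2 genes encode partners in a complex on the ribosome.

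Nucleotide exchange factors of HSP70 were mixed. Hspa4, of the HSP110 family, stood at 84.6, 69.3, 57.6, 75.4 and 74.1 FPKM in Mettl3-ASO replicates 1 to 5, against 48.0, 47.4, 35.3, 38.6 and 37.1 FPKM in ASO-Control replicates 1 to 5. The groups did not overlap and the log2 fold change was 0.77 ± 0.10 (adjusted p = 8.91e-05). Bag3, which also directs clients to autophagy, stood at 37.1, 15.4, 14.1, 18.1 and 15.4 FPKM in Mettl3-ASO replicates 1 to 5, against 16.8, 12.4, 9.54, 10.1 and 6.05 FPKM in ASO-Control replicates 1 to 5. Mettl3-ASO replicate 1 was the highest by far, and replicates 2 to 5 fell within the ASO-Control range or just above it. The log2 fold change of Bag3 was 0.82 ± 0.21 (adjusted p = 0.00549), with all 5 Mettl3-ASO libraries above the ASO-Control mean of their batch. The inducible HSP110 gene Hsph1 did not pass, at 49.6 ± 11.3 FPKM in Mettl3-ASO, against 48.0 ± 4.28 FPKM in ASO-Control libraries; its log2 fold change of −0.004 ± 0.16 took either sign across settings. Hspbp1 stood at 34.0 ± 10.9 FPKM in Mettl3-ASO, against 40.4 ± 7.63 FPKM in ASO-Control libraries (log2 fold change −0.33 ± 0.14, adjusted p = 0.0623). With DESeq2 it passed (log2 fold change −0.34, adjusted p = 0.0355).

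Of 10 cytosolic J-protein genes tested, 3 rose and 1 fell; 25.4% of all tested genes rose and 24.0% fell. Dnajb1, the stress-inducible HSP40 that works with inducible HSP70, stood at 72.1, 91.8, 67.8, 61.3 and 48.3 FPKM in Mettl3-ASO replicates 1 to 5, against 41.4, 41.4, 21.3, 34.2 and 19.6 FPKM in ASO-Control replicates 1 to 5. The groups did not overlap, and the gene rose 2.15-fold (log2 fold change 1.10 ± 0.17, adjusted p = 2.04e-04). Dnajb3, a J-protein gene of testis, stood at 10.2, 9.67, 13.0, 9.04 and 10.3 FPKM in Mettl3-ASO replicates 1 to 5, against 1.97, 1.04, 0.98, 1.71 and 0.47 FPKM in ASO-Control replicates 1 to 5. The lowest Mettl3-ASO library stood several times above the highest ASO-Control library, a rise of 8.47-fold (log2 fold change 3.08 ± 0.35, adjusted p = 2.49e-05). Dnaja4 rose 2.04-fold at low level, to 2.90 ± 1.17 FPKM in Mettl3-ASO, against 1.38 ± 0.635 FPKM in ASO-Control libraries (adjusted p = 0.00538), but 44.1% of its exon bases lie opposite to exons of Wdr61, and whether reads were counted by strand is not stated. The abundant J-protein genes were not called in the main fit. Dnaja1 stood at 1155 ± 159 FPKM in Mettl3-ASO, against 934 ± 193 FPKM in ASO-Control libraries (adjusted p = 0.104), and Dnaja2 at 112 ± 7.22 FPKM in Mettl3-ASO, against 95.9 ± 11.8 FPKM in ASO-Control libraries (adjusted p = 0.159). With a mean of at least 5 FPKM Dnaja1 passed (log2 fold change 0.33, adjusted p = 0.044). Dnaja1 also passed without ASO-Control replicate 4 (0.0394) or Mettl3-ASO replicate 5 (0.0279). Dnaja2 passed narrowly with that filter, and without Mettl3-ASO replicate 1 (0.0433). For Dnajb6, which keeps proteins from aggregating, the values were 854 ± 153 FPKM in Mettl3-ASO, against 882 ± 107 FPKM in ASO-Control libraries (adjusted p = 0.776). Dnajb2, Dnajb4 and Dnajc7 had log2 fold changes of 0.34, 0.46 and −0.15, with adjusted p of 0.249, 0.297 and 0.473.

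The 2 cytosolic HSP90 genes, with Hspa8 the most abundant members per length, did not pass the test. Hsp90aa1, the inducible form, stood at 7209.6, 3894, 5559, 6631 and 4622 FPKM in Mettl3-ASO replicates 1 to 5, against 6341, 5325, 5804, 6636 and 6317 FPKM in ASO-Control replicates 1 to 5. The Mettl3-ASO libraries spread on both sides of the ASO-Control range, with a log2 fold change of −0.18 ± 0.13 (adjusted p = 0.258). Without Mettl3-ASO replicate 1, the highest of them, the change was −0.29 and passed (adjusted p = 0.0389). Of the 50-base windows of Hsp90aa1, 47.5% recur in other genes. The constitutive Hsp90ab1 stood at 2553 ± 469.5 FPKM in Mettl3-ASO, against 2155 ± 319.6 FPKM in ASO-Control libraries (log2 fold change 0.20 ± 0.11, adjusted p = 0.155). The ratio of Hsp90aa1 to Hsp90ab1 was 2.24 ± 0.64 in Mettl3-ASO and 2.90 ± 0.63 in ASO-Control libraries (SD, n = 5 each). Stip1, whose product HOP links HSP70 to HSP90, stood at 499 ± 82.8 FPKM in Mettl3-ASO, against 551 ± 91.0 FPKM in ASO-Control libraries (adjusted p = 0.311).

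Of the small heat shock proteins, which hold unfolded proteins without ATP, 1 of 4 tested rose, a share like the 25.4% of all tested genes. Hspb2 stood at 32.4, 7.64, 17.1, 14.1 and 8.52 FPKM in Mettl3-ASO replicates 1 to 5, against 10.8, 1.19, 4.83, 4.89 and 0.77 FPKM in ASO-Control replicates 1 to 5. Its groups overlapped at low counts, and the call (log2 fold change 1.62 ± 0.56, adjusted p = 0.0282) was lost in 4 of the 10 fits that left out 1 library, namely Mettl3-ASO replicates 1 and 3 and ASO-Control replicates 2 and 5 (adjusted p from 0.0528 to 0.09). Exons of Cryab lie opposite to 30.2% of its exon bases, and its mean effective transcript length was 401 bases in Mettl3-ASO and 478 bases in ASO-Control libraries. Hspb1 (HSP25), the most abundant of them, stood at 55.9 ± 30.5 FPKM in Mettl3-ASO, against 96.0 ± 47.1 FPKM in ASO-Control libraries and missed the threshold (log2 fold change −0.78 ± 0.34, adjusted p = 0.0723). With the replicate number as a block its log2 fold change was −0.83 and passed (adjusted p = 0.00404). Hspb1 also passed with DESeq2 (0.0242). It passed without Mettl3-ASO replicate 1 (0.0492), Mettl3-ASO replicate 5 (0.0488) or ASO-Control replicate 4 (0.0232). Other genes, most often Hsp25-ps1, share 50.1% of its 50-base windows. Hspb8, the partner of BAG3, stood at 5.07 ± 4.25 FPKM in Mettl3-ASO, against 3.37 ± 2.00 FPKM in ASO-Control libraries (adjusted p = 0.469), and Hspb6 was not called either.

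Hsf1, the transcription factor of the heat shock response, stood at 10.7, 4.0, 4.75, 4.48 and 2.18 FPKM in Mettl3-ASO replicates 1 to 5, against 11.4, 10.4, 5.71, 7.05 and 5.56 FPKM in ASO-Control replicates 1 to 5. All 5 Mettl3-ASO libraries lay below the ASO-Control mean of their batch, but the groups overlapped through Mettl3-ASO replicate 1. The log2 fold change was −0.70 ± 0.26, just past the threshold (adjusted p = 0.0375). The call was lost in batch 2 alone (log2 fold change −0.71, adjusted p = 0.0951), with no batch term (0.0866), with a mean of at least 5 FPKM (0.0607), and without any one of the 5 ASO-Control libraries or of Mettl3-ASO replicates 2 and 5 (0.0568 to 0.0769). Hsf2, which acts in germ cells and early development, stood at 6.49 ± 0.413 FPKM in Mettl3-ASO, against 7.27 ± 0.499 FPKM in ASO-Control libraries and did not pass (adjusted p = 0.29). A list of 17 known HSF1 targets in the tables, of which 13 are members themselves, had 5 higher and 5 lower of 15 tested (66.7% called, against 49.4% of all tested genes) and a median log2 fold change of −0.18. Those higher were Hspa1a, Hspa1b, Dnajb1, Bag3 and Hspa8. Hspa1a and Hspa1b share reads, so their rises are not separate. Hspa1a also passed the filter only through the Mettl3-ASO libraries, which favours a rise. Those lower were Hspe1, Hspd1, Chordc1, Fkbp4 and Ahsa1, and the last 3 encode partners of HSP90.

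**Figure D2:**
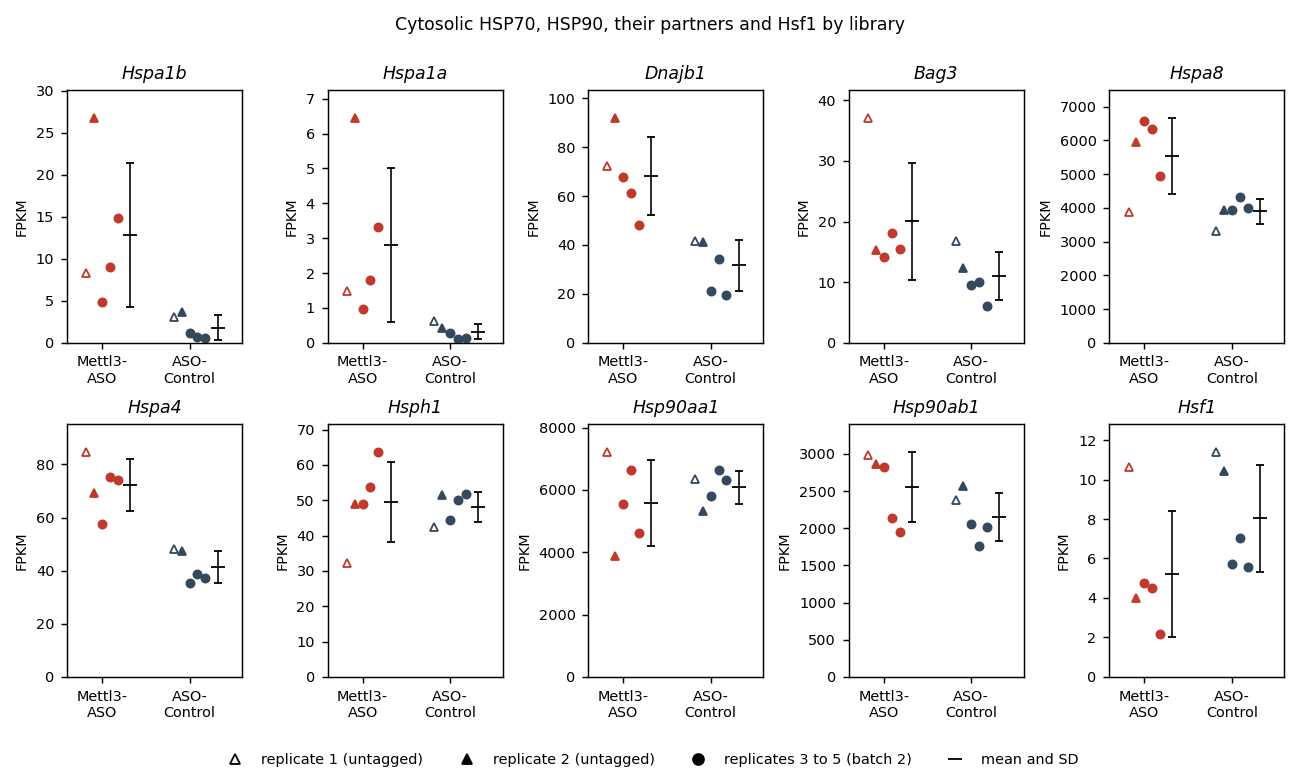
FPKM (y axis, from 0) of 10 cytosolic chaperone and heat shock factor genes in each library, Mettl3-ASO in red and ASO-Control in dark blue; open triangles are replicate 1, filled triangles replicate 2 and circles replicates 3 to 5, and bars are mean and SD of 5 libraries. Hspa1b, Hspa1a, Dnajb1 and Hspa4 show no overlap between groups; Hsph1, Hsp90aa1 and Hsp90ab1 were not called.

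Of 21 further co-chaperones of HSP90 and HSP70, 20 were tested. Among them 4 rose and 9 fell, with a median log2 fold change of −0.28. Over all tested genes 25.4% rose and 24.0% fell. Chordc1, Fkbp4 and Ahsa1 were also counted in the HSF1 list above. Chordc1, an HSP90 partner, fell to 53.1 ± 7.03 FPKM in Mettl3-ASO, against 107 ± 17.1 FPKM in ASO-Control libraries (log2 fold change −1.05 ± 0.13, adjusted p = 3.56e-05). Ttc4, a further HSP90 partner, fell to 13.1 ± 2.45 FPKM in Mettl3-ASO, against 26.0 ± 1.45 FPKM in ASO-Control libraries (adjusted p = 1.48e-04). Bag5, an exchange factor of HSP70, rose to 48.0 ± 4.81 FPKM in Mettl3-ASO, against 23.3 ± 1.75 FPKM in ASO-Control libraries (log2 fold change 1.0 ± 0.13, adjusted p = 5.79e-05). None of these 3 overlapped between groups.

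The chaperonin CCT is a double ring of 8 kinds of subunit. Every subunit gene had a negative log2 fold change and 6 of 8 passed the test, against 24.0% of all tested genes that fell, with a median of −0.46. Cct4 stood at 254, 240.0, 268, 316 and 289 FPKM in Mettl3-ASO replicates 1 to 5, against 425, 428, 470.1, 458 and 539 FPKM in ASO-Control replicates 1 to 5. Each Mettl3-ASO library lay well below each ASO-Control library, with a log2 fold change of −0.81 ± 0.10 (adjusted p = 3.12e-05). Cct6a stood at 228, 161, 118, 149 and 136 FPKM in Mettl3-ASO replicates 1 to 5, against 314, 316, 200.1, 256 and 259 FPKM in ASO-Control replicates 1 to 5. Only Mettl3-ASO replicate 1 reached into the ASO-Control range, and all 5 lay below the ASO-Control mean of their batch (log2 fold change −0.82 ± 0.11, adjusted p = 8.45e-05); 12.5% of its exon bases lie opposite to Psph. Tcp1 (subunit alpha) stood at 271, 294, 305, 286 and 266 FPKM in Mettl3-ASO replicates 1 to 5, against 376, 397, 396, 431 and 470.4 FPKM in ASO-Control replicates 1 to 5. Its libraries were tightly grouped and apart, with a log2 fold change of −0.60 ± 0.10 (adjusted p = 4.33e-04).

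Cct5, Cct2 and Cct3 did not overlap between groups either, with log2 fold changes of −0.48 ± 0.08, −0.44 ± 0.09 and −0.40 ± 0.11 and adjusted p of 4.99e-04, 0.00161 and 0.00994. Cct3 stood at 308 ± 10.5 FPKM in Mettl3-ASO, against 393 ± 42.3 FPKM in ASO-Control libraries. The exceptions were Cct8 and Cct7. Cct8, the most abundant subunit per length, stood at 483, 677, 731, 708 and 699 FPKM in Mettl3-ASO replicates 1 to 5, against 592, 727, 822, 810.1 and 935 FPKM in ASO-Control replicates 1 to 5. Mettl3-ASO replicate 1 was the lowest, and the other 4 lay among the ASO-Control values (log2 fold change −0.27 ± 0.13, adjusted p = 0.106). With the replicate number as a block the fold change was −0.28 and passed (adjusted p = 0.0205); it was −0.40 without Mettl3-ASO replicate 2 (0.0105). Cct7 stood at 329.6, 349.7, 305, 299 and 223 FPKM in Mettl3-ASO replicates 1 to 5, against 287, 321, 283, 283 and 298 FPKM in ASO-Control replicates 1 to 5. The ASO-Control values lay inside the Mettl3-ASO range, and the log2 fold change of −0.02 ± 0.11 (adjusted p = 0.906) changed sign in some settings. The ratio of Cct7 to Cct4 was 1.12 ± 0.27 in Mettl3-ASO and 0.640 ± 0.075 in ASO-Control libraries (SD, n = 5 each), with no overlap between the groups. The summed level of the 8 subunits was 0.271% ± 0.018 of transcripts (TPM) in Mettl3-ASO and 0.353% ± 0.026 in ASO-Control libraries (SD, n = 5 each). Cct6b, the subunit of testis, fell to 4.58 ± 1.86 FPKM in Mettl3-ASO, against 12.2 ± 2.56 FPKM in ASO-Control libraries, 2.81-fold lower (log2 fold change −1.49 ± 0.29, adjusted p = 0.00105).

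**Figure D3:**
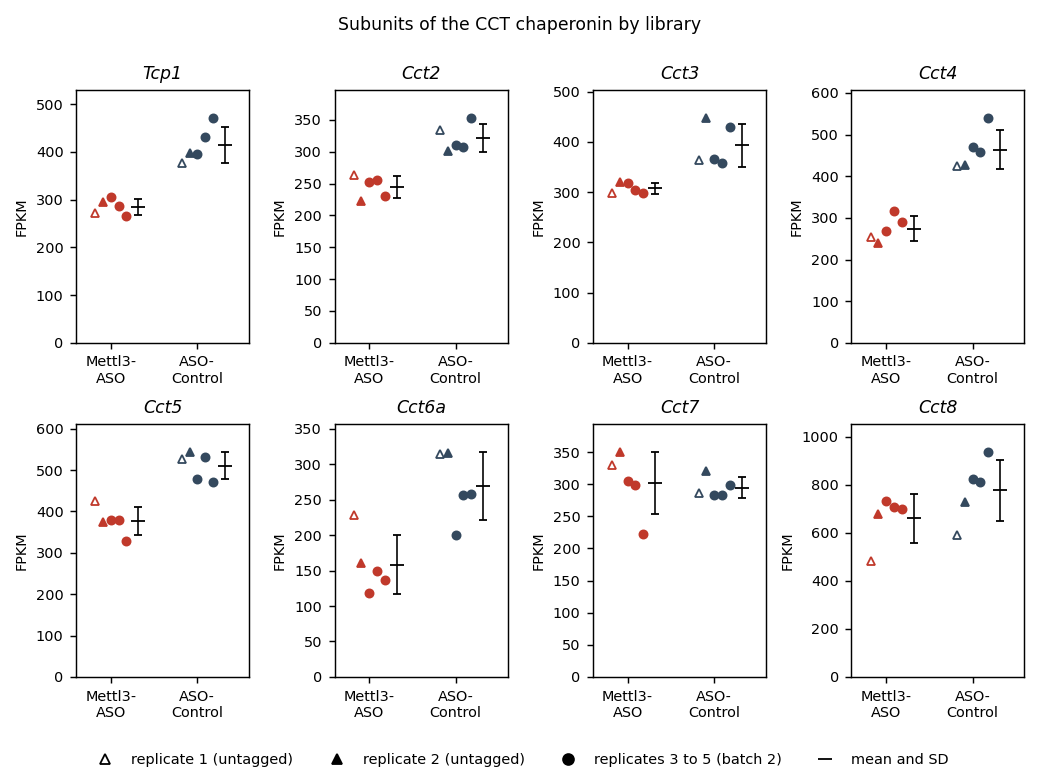
FPKM (y axis, from 0) of the 8 CCT subunit genes in each library, Mettl3-ASO in red and ASO-Control in dark blue; open triangles are replicate 1, filled triangles replicate 2 and circles replicates 3 to 5, and bars are mean and SD of 5 libraries. Tcp1, Cct2, Cct3, Cct4 and Cct5 were lower in every Mettl3-ASO library than in every ASO-Control library, and Cct7 was not.

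Prefoldin hands unfolded actin and tubulin to CCT. Of 10 genes for its subunits and for other CCT cofactors, 1 rose and 4 fell (median log2 fold change −0.29), about the share called over all tested genes (49.4%). Pfdn1 fell to 222 ± 31.6 FPKM in Mettl3-ASO, against 312 ± 46.4 FPKM in ASO-Control libraries (adjusted p = 0.00413), and Vbp1 to 548 ± 93.1 FPKM in Mettl3-ASO, against 707 ± 88.1 FPKM in ASO-Control libraries (adjusted p = 0.0135). The call for Vbp1 was lost in batch 2 alone (adjusted p = 0.09), with no batch term (0.12) and without ASO-Control replicate 2 (0.0504). Pdrg1, related to prefoldin, rose to 226 ± 71.6 FPKM in Mettl3-ASO, against 121 ± 25.5 FPKM in ASO-Control libraries (adjusted p = 0.00819).

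In the ER the 2 central chaperones fell while 2 J-protein genes rose several-fold. Hsp90b1 (GRP94, the HSP90 of the ER lumen; chr10:86690209-86705509, minus strand, GRCm38) stood at 59.6, 61.2, 33.8, 36.0 and 42.1 FPKM in Mettl3-ASO replicates 1 to 5, against 145, 119.9, 72.6, 108 and 82.7 FPKM in ASO-Control replicates 1 to 5. All Mettl3-ASO values lay below all ASO-Control values, with a log2 fold change of −1.23 ± 0.13, 2.35-fold lower (adjusted p = 1.24e-05); 10.3% of its exon bases lie opposite to 1810014B01Rik. Hspa5 (BiP, the HSP70 of the ER lumen; chr2:34771970-34777547, plus strand, GRCm38) stood at 65.0, 87.1, 60.3, 60.5 and 75.9 FPKM in Mettl3-ASO replicates 1 to 5, against 143, 109, 77.0, 135 and 83.8 FPKM in ASO-Control replicates 1 to 5. All 5 Mettl3-ASO libraries lay below the ASO-Control mean of their batch, and within each batch the groups did not overlap. The log2 fold change was −0.67 ± 0.17 (adjusted p = 0.00608). These are the 2 genes whose promoters, printed above, hold the ER stress response element.

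Dnajb9 (ERdj4; chr12:44205559-44210326, minus strand, GRCm38), a J-protein of the ER lumen that binds BiP, went the other way and stood at 168, 354, 250.3, 253 and 343 FPKM in Mettl3-ASO replicates 1 to 5, against 49.0, 46.2, 53.2, 79.5 and 60.1 FPKM in ASO-Control replicates 1 to 5. The lowest Mettl3-ASO library, replicate 1, was still above the highest ASO-Control library by about a factor of 2. The log2 fold change was 2.24 ± 0.22, 4.72-fold (adjusted p = 9.00e-06), and it passed in each batch alone (2.11 in batch 2, adjusted p = 4.60e-05, and 2.46 in the untagged libraries, adjusted p = 0.0274). The ratio of Dnajb9 to Hspa5 was 3.90 ± 0.76 in Mettl3-ASO and 0.553 ± 0.165 in ASO-Control libraries (SD, n = 5 each), without overlap. Dnajb14, a J-protein of the ER membrane, stood at 5.69, 44.5, 25.5, 42.1 and 82.0 FPKM in Mettl3-ASO replicates 1 to 5, against 5.67, 10.3, 7.55, 6.41 and 9.66 FPKM in ASO-Control replicates 1 to 5. In 4 Mettl3-ASO libraries it was far above all ASO-Control libraries, and in replicate 1 it lay at the lower end of the ASO-Control range. Its log2 fold change was 2.26 ± 0.51 (adjusted p = 0.00272).

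The other ER members mostly had negative fold changes. Dnajb11 (ERdj3), which works with BiP in the lumen, stood at 57.0, 66.0, 46.9, 52.9 and 39.2 FPKM in Mettl3-ASO replicates 1 to 5, against 76.7, 97.3, 81.3, 64.0 and 61.6 FPKM in ASO-Control replicates 1 to 5. All Mettl3-ASO libraries but 1, replicate 2, lay below the ASO-Control range (log2 fold change −0.59 ± 0.14, adjusted p = 0.00392). Dnajc14, a J-protein of the ER membrane, fell to 1.73 ± 0.783 FPKM in Mettl3-ASO, against 3.70 ± 1.67 FPKM in ASO-Control libraries (log2 fold change −1.05 ± 0.27, adjusted p = 0.00617); it missed the threshold in batch 2 alone (adjusted p = 0.0978), and 19.1% of its exon bases lie opposite to Ormdl2. Dnajc1 (ERdj1) fell to 3.99 ± 1.73 FPKM in Mettl3-ASO, against 5.30 ± 1.32 FPKM in ASO-Control libraries (adjusted p = 0.0205), a call lost with no batch term (0.104), under limma on log2(FPKM + 1) (0.0539) and without ASO-Control replicate 3 (0.0595) or Mettl3-ASO replicate 4 (0.0603). Dnajc3 (P58IPK) stood at 6.46 ± 1.73 FPKM in Mettl3-ASO, against 8.36 ± 2.66 FPKM in ASO-Control libraries and missed the threshold (adjusted p = 0.126), as did Dnajb12 at 8.21 ± 1.53 FPKM in Mettl3-ASO, against 11.0 ± 2.30 FPKM in ASO-Control libraries (adjusted p = 0.0524). With the replicate block both passed, at log2 fold changes of −0.39 (adjusted p = 0.0454) and −0.46 (adjusted p = 0.029). Dnajb12 also passed with DESeq2 (0.0374) and without ASO-Control replicate 5 (0.0448) or Mettl3-ASO replicate 4 (0.0366). Dnajc10, Dnajc25 and Hspa13 had log2 fold changes of 0.17, −0.12 and 0.22 and were not called (adjusted p from 0.302 to 0.658).

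**Figure D4:**
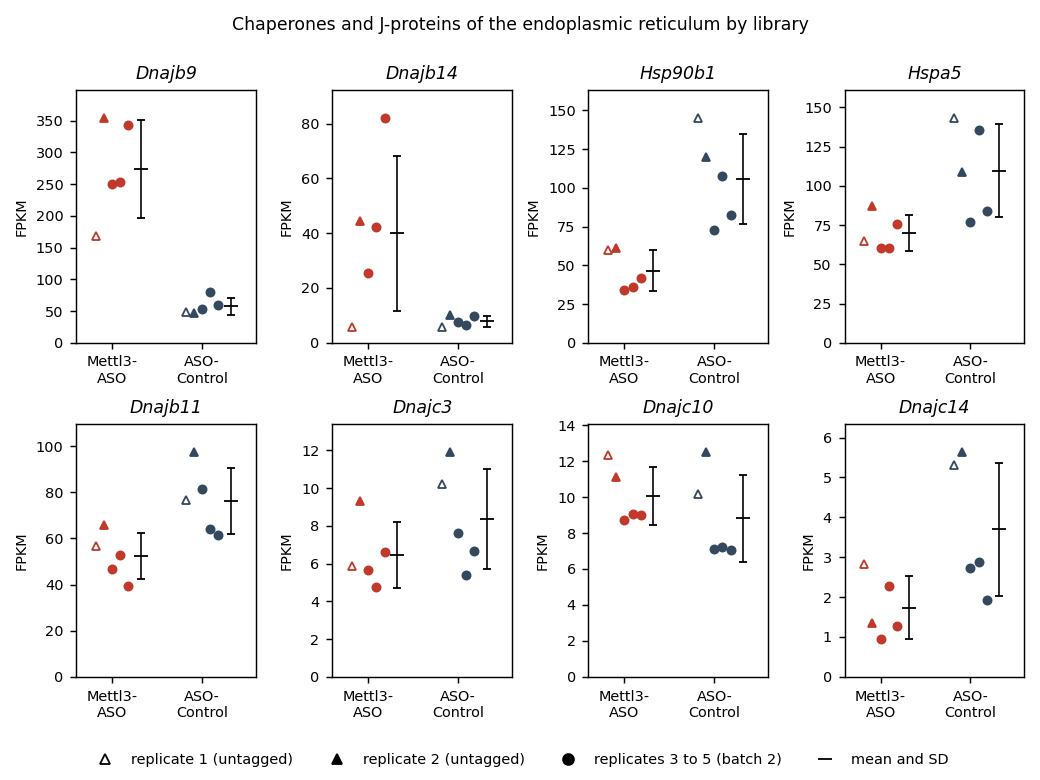
FPKM (y axis, from 0) of 8 ER chaperone and J-protein genes in each library, Mettl3-ASO in red and ASO-Control in dark blue; open triangles are replicate 1, filled triangles replicate 2 and circles replicates 3 to 5, and bars are mean and SD of 5 libraries. Dnajb9 lies between 168 and 354 FPKM in Mettl3-ASO and between 46.2 and 79.5 FPKM in ASO-Control libraries, while Hsp90b1 and Hspa5 have lower means in Mettl3-ASO.

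Of 16 further genes of ER folding in the tables, 13 were tested; none rose and 5 fell (median log2 fold change −0.32), so that 38.5% were called, fewer than the 49.4% of all tested genes. Sdf2l1, which forms complexes with Dnajb11, fell to 4.16 ± 1.82 FPKM in Mettl3-ASO, against 11.7 ± 2.75 FPKM in ASO-Control libraries, 2.95-fold lower (adjusted p = 1.81e-04). The disulfide isomerase gene Pdia6 fell to 20.1 ± 7.38 FPKM in Mettl3-ASO, against 39.1 ± 13.4 FPKM in ASO-Control libraries (adjusted p = 3.09e-04), and Canx, the lectin chaperone calnexin, to 85.9 ± 11.0 FPKM in Mettl3-ASO, against 132 ± 19.4 FPKM in ASO-Control libraries (adjusted p = 3.34e-04). A list of 16 known targets of ER stress, 6 of them members, had 1 higher and 9 lower of 15 tested, against 25.4% higher and 24.0% lower over all tested genes, with a median log2 fold change of −0.67. The 1 that rose was Dnajb9. Hyou1, Sdf2l1, Pdia4, Pdia6, Manf and Creld2 of this list are also among the genes of ER folding counted above. The counts therefore overlap and are not separate results. Xbp1, the transcription factor of the unfolded protein response, had 7.64, 0.69, 3.52, 2.57 and 0.90 FPKM in Mettl3-ASO replicates 1 to 5, against 14.5, 12.4, 7.41, 17.9 and 7.82 FPKM in ASO-Control replicates 1 to 5. It was named after its values were seen. Only Mettl3-ASO replicate 1 reached the ASO-Control range (log2 fold change −2.08 ± 0.49, adjusted p = 0.00366); gene counts do not separate its spliced form.

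The members placed in mitochondria fell or did not pass the test. Hspe1 (HSP10, the lid of the matrix chaperonin; chr1:55088132-55091307, plus strand, GRCm38) stood at 654, 401, 522, 446 and 409 FPKM in Mettl3-ASO replicates 1 to 5, against 1245, 1024, 919, 674 and 797 FPKM in ASO-Control replicates 1 to 5. The groups did not overlap, by a narrow margin between Mettl3-ASO replicate 1 and ASO-Control replicate 4. Its log2 fold change was −0.97 ± 0.13, 1.96-fold lower (adjusted p = 1.0e-04). Hspd1 (HSP60, the chamber itself; chr1:55077835-55088243, minus strand, GRCm38), the head-to-head neighbour of Hspe1, stood at 187, 127, 126, 125 and 76.4 FPKM in Mettl3-ASO replicates 1 to 5, against 294, 294, 175, 210.0 and 194 FPKM in ASO-Control replicates 1 to 5. Within each batch every Mettl3-ASO library was lower than every ASO-Control library, with a log2 fold change of −0.91 ± 0.14 (adjusted p = 1.80e-04). The ratio of Hspe1 to Hspd1 was 3.94 ± 0.87 in Mettl3-ASO and 4.06 ± 0.79 in ASO-Control libraries (SD, n = 5 each), a difference smaller than the spread. Other genes share 42.1% of the 50-base windows of Hspd1 (most often Hspd1-ps3) and 22.8% of those of Hspe1 (most often AC117239.2).

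The matrix HSP70 gene Hspa9 (mortalin; chr18:34937414-34954357, minus strand, GRCm38) stood at 155, 124, 84.3, 103 and 109 FPKM in Mettl3-ASO replicates 1 to 5, against 158, 145, 115, 124 and 125 FPKM in ASO-Control replicates 1 to 5. The difference was small, with 4 of 5 Mettl3-ASO libraries below the ASO-Control mean of their batch (log2 fold change −0.27 ± 0.10, adjusted p = 0.0388). The call was lost in batch 2 alone (0.0798), with no batch term (0.108), with limma (0.101 and 0.102), with a mean of at least 5 FPKM (0.0865), and without any one ASO-Control library or without Mettl3-ASO replicate 3 or 4 (0.0529 to 0.101). The 2 J-protein genes of the import motor at the inner membrane, whose products stimulate HSPA9, fell. Dnajc19 (TIM14) stood at 332, 213, 286, 296 and 225 FPKM in Mettl3-ASO replicates 1 to 5, against 416, 450.1, 593, 441 and 522 FPKM in ASO-Control replicates 1 to 5. The groups did not overlap, with a log2 fold change of −0.86 ± 0.13 (adjusted p = 1.83e-04). Its relative Dnajc15 stood at 306, 329, 324, 362 and 377 FPKM in Mettl3-ASO replicates 1 to 5, against 379, 373, 478, 521 and 584 FPKM in ASO-Control replicates 1 to 5. The groups touched only between Mettl3-ASO replicate 5 and ASO-Control replicate 2 (log2 fold change −0.48 ± 0.12, adjusted p = 0.00678; 0.0511 with no batch term). Dnaja3 (TID1), Dnajc11 of the MICOS complex and Dnajc30 were not called, at log2 fold changes of −0.23, −0.25 and 0.60 (adjusted p = 0.274, 0.325 and 0.092). Dnajc11 passed without Mettl3-ASO replicate 1 (−0.49, adjusted p = 0.0301), and Dnajc30 passed with the replicate block (0.67, adjusted p = 0.0107) and without ASO-Control replicate 4 (0.87, 0.0156); 26.2% of its exon bases lie opposite to Bud23.

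**Figure D5:**
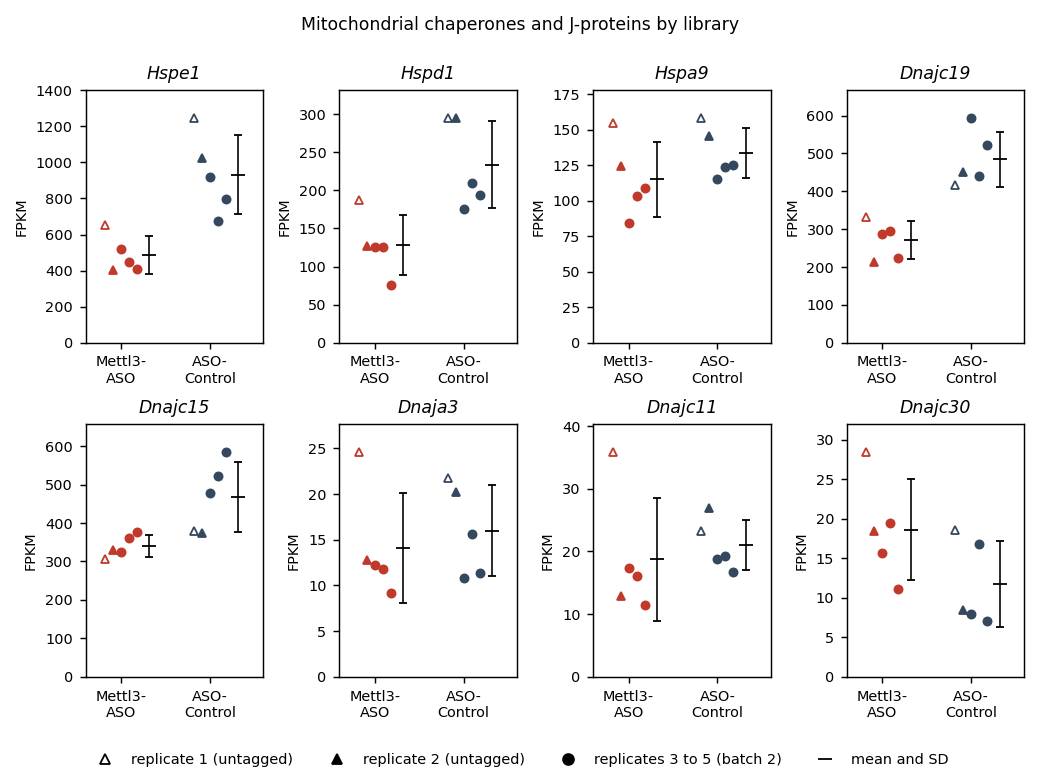
FPKM (y axis, from 0) of the 8 mitochondrial members in each library, Mettl3-ASO in red and ASO-Control in dark blue; open triangles are replicate 1, filled triangles replicate 2 and circles replicates 3 to 5, and bars are mean and SD of 5 libraries. Hspe1 averaged 486 FPKM in Mettl3-ASO and 932 FPKM in ASO-Control libraries, and Dnajc19 averaged 270 FPKM in Mettl3-ASO and 484 FPKM in ASO-Control libraries.

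Of 12 further genes of mitochondrial import, folding and proteolysis, 3 rose and 7 fell (median log2 fold change −0.38), and of all tested genes 25.4% rose and 24.0% fell. Clpp, a matrix protease, fell to 184 ± 32.7 FPKM in Mettl3-ASO, against 279 ± 18.7 FPKM in ASO-Control libraries (adjusted p = 5.99e-04). Pam16, the partner of the Dnajc19 product in the import motor, fell to 297 ± 31.3 FPKM in Mettl3-ASO, against 383 ± 33.0 FPKM in ASO-Control libraries (adjusted p = 0.00476), a call lost in batch 2 alone (0.0621). Hscb, a J-protein of iron-sulfur cluster assembly that its symbol kept out of the members, rose to 75.3 ± 10.1 FPKM in Mettl3-ASO, against 46.8 ± 9.03 FPKM in ASO-Control libraries (adjusted p = 0.00165). None of these 3 overlapped between groups.

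J-proteins of the mixed remainder had 6 higher and 2 lower of 12 tested (66.7% called, against 49.4% of all tested genes), but 2 of the 6, Dnajc28 and Dnajc22, passed the filter through the Mettl3-ASO libraries. Dnajc5g, a testis relative of the vesicle-bound cysteine string protein, stood at 28.9, 19.9, 40.8, 36.2 and 31.7 FPKM in Mettl3-ASO replicates 1 to 5, against 6.60, 4.79, 10.6, 10.3 and 10.2 FPKM in ASO-Control replicates 1 to 5. The groups were far apart and the gene rose 3.65-fold (log2 fold change 1.87 ± 0.15, adjusted p = 2.64e-06). Its relative Dnajc5 rose less, to 13.9 ± 3.06 FPKM in Mettl3-ASO, against 9.66 ± 0.492 FPKM in ASO-Control libraries (log2 fold change 0.46 ± 0.15, adjusted p = 0.0199), a call lost in batch 2 alone (0.169) and without ASO-Control replicate 1 (0.0516) or 2 (0.0522). Dnajc28 rose 3.04-fold to 1.94 ± 0.135 FPKM in Mettl3-ASO, against 0.634 ± 0.203 FPKM in ASO-Control libraries (adjusted p = 7.50e-04). Dnajc22, a membrane J-protein, rose to 1.67 ± 0.946 FPKM in Mettl3-ASO, against 0.576 ± 0.660 FPKM in ASO-Control libraries with overlapping groups (adjusted p = 0.00969; 0.074 with no batch term). Dnajc12, which acts on aromatic amino acid hydroxylases, rose to 17.5 ± 5.09 FPKM in Mettl3-ASO, against 8.31 ± 4.65 FPKM in ASO-Control libraries (adjusted p = 0.0235), a call lost in batch 2 alone (0.0547) and when Mettl3-ASO replicate 2 or any of ASO-Control replicates 2, 3 and 5 was left out (0.0575 to 0.0816). Dnajc21, of ribosome biogenesis, rose to 248 ± 28.1 FPKM in Mettl3-ASO, against 183 ± 11.3 FPKM in ASO-Control libraries without overlap (adjusted p = 0.00901; 0.0655 in batch 2 alone).

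Both nuclear J-proteins linked to splicing fell. Dnajc17 stood at 16.4, 17.8, 24.5, 22.0 and 23.0 FPKM in Mettl3-ASO replicates 1 to 5, against 44.8, 71.0, 92.7, 50.9 and 82.9 FPKM in ASO-Control replicates 1 to 5. It was the tested member with the largest fall, 3.41-fold (log2 fold change −1.77 ± 0.20, adjusted p = 2.56e-05), and 18.7% of its 50-base windows recur in other genes. Dnajc8 stood at 208, 159.7, 169, 199 and 144 FPKM in Mettl3-ASO replicates 1 to 5, against 356, 292, 356, 368 and 318 FPKM in ASO-Control replicates 1 to 5. Its groups did not overlap either (log2 fold change −0.99 ± 0.11, adjusted p = 1.87e-05). Dnajc24, of diphthamide synthesis, and the endosomal Dnajc13 were not called (adjusted p = 0.23 and 0.104); Dnajc13 passed with the replicate block (log2 fold change −0.39, adjusted p = 0.0311) and without Mettl3-ASO replicate 5 (−0.51, 0.0292). Dnajc4, Dnajc9 (a histone chaperone) and Hspbap1 were not called. Hspb11, the intraflagellar transport subunit, rose to 57.8 ± 13.7 FPKM in Mettl3-ASO, against 31.4 ± 9.56 FPKM in ASO-Control libraries (adjusted p = 0.00515).

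The filter left 18 members untested, at means up to 0.868 FPKM over the 10 libraries. Of these, 6 had under 0.1 FPKM on average in both groups, namely the HSP70 relatives Hspa12a, Hspa12b and Hspa1l, the small heat shock protein gene Hspb7, the testis J-protein gene Dnajb8 and Hspg2. With a filter of at least 10 counts in total instead, 16078 genes were tested and 34.8% called. In that fit Dnajc18, a J-protein of the ER membrane with 621 counts in Mettl3-ASO and 169 in ASO-Control libraries, was higher (log2 fold change 1.98, adjusted p = 0.00603). Dnajc6 (auxilin, which uncoats clathrin vesicles), with 195 counts in Mettl3-ASO and 740 in ASO-Control libraries, was lower (log2 fold change −1.84, adjusted p = 2.77e-04). Dnajb13, an axonemal protein, had 55 counts in Mettl3-ASO and 1 in ASO-Control libraries. For Hspb3 the sums were 29 counts in Mettl3-ASO, 19 of them in replicate 3, and 0 in ASO-Control libraries. Both reached that filter through the Mettl3-ASO libraries, and no test is given for them. Dnajc16, of the ER membrane, had 347 counts in Mettl3-ASO and 236 in ASO-Control libraries, with FPKM that did not overlap, and missed the threshold (adjusted p = 0.0783). The HSP110 gene Hspa4l had 281 counts in each group. Cct8l1, Dnajb5, Dnajb7, Dnajc5b and Dnajc27 were not called in that fit, and Hspb9, with 0 counts in Mettl3-ASO and 7 in ASO-Control libraries, was not tested. Among tested members, 3 (Hspa1a, Dnajc28 and Dnajc22) had an ASO-Control mean under 1 FPKM and so passed the filter through the Mettl3-ASO libraries, and none had a Mettl3-ASO mean under 1 FPKM.

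In summed TPM, the members together made up 2.32% ± 0.22 of transcripts in Mettl3-ASO and 2.29% ± 0.13 in ASO-Control libraries (SD, n = 5 each), a difference smaller than the spread. Cytosolic members were most of it, at 2.04% ± 0.21 in Mettl3-ASO and 1.93% ± 0.11 in ASO-Control libraries. Cytosolic HSP90 and HSP70 genes summed to 1.43% ± 0.16 in Mettl3-ASO and 1.26% ± 0.07 in ASO-Control libraries. ER members made up 0.056% ± 0.013 in Mettl3-ASO and 0.043% ± 0.009 in ASO-Control libraries, although 5 of the 7 called were lower. The others called were Dnajb9 and Dnajb14. Dnajb9 averaged 274 FPKM in Mettl3-ASO, against 57.6 FPKM in ASO-Control libraries. Dnajb14 averaged 40.0 FPKM in Mettl3-ASO, against 7.91 FPKM in ASO-Control libraries. The ER sum without these J-protein genes was not computed, so it does not show a rise of ER chaperones in general. Mitochondrial members made up 0.145% ± 0.024 in Mettl3-ASO and 0.236% ± 0.026 in ASO-Control libraries, and each of the 5 Mettl3-ASO libraries (1228 to 1859 TPM) lay below each ASO-Control library (2061 to 2668 TPM).

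Most members had the same sign of change in both batches. In batch 2 alone, where 39.0% of all tested genes were called, 16 members were higher and 19 lower. In the 4 untagged libraries alone, where 6.26% of genes were called, 3 were higher (Dnajb9, Dnajc5g and Dnajb3) and 4 lower (Hsp90b1, Hspe1, Hspd1 and Dnajc17). Batch 2 gave a median of −0.30 for ER and −0.46 for mitochondrial members; the untagged libraries gave −0.38 for ER and −0.25 for mitochondrial members. Of 71 tested members, 64 had 1 sign in both batches. The share over all tested genes was not counted. A model with a group-by-batch term called 0 of the 9522 genes at an adjusted p under 0.05 with edgeR, and 159 at an unadjusted p under 0.05, of which 1 was a member (Hspbap1). With 2 untagged libraries a group, that term can miss differences between batches.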

How the data were processed

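RNA of 10 libraries of pooled mouse morulae was analysed from one gene table per library. Titles gave each group and replicate number, and the labels gave the batch. STAR 2.7.10, RSEM 1.3.3 and the build mm10 are named per the submitters' processing notes; strand setting and annotation release are not stated there. The authors deposited expected counts, in which RSEM divides ambiguous reads among genes. The deposited FPKM are scaled by the authors to length and fragments, and the deposited TPM to a common sum per library. Lengths, also deposited, were read only to compare transcript lengths between groups. Near-identical copies therefore have uncertain values, and FPKM depends on the make-up of each library.

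Rounded expected counts entered the quasi-likelihood test of edgeR 4.0.16 (R 4.3.3), with TMM scaling and terms for batch and group, over 9522 genes with a mean of at least 1 FPKM. Adjusted p are Benjamini-Hochberg values over all of them, and genes were called under 0.05. Standard errors are the absolute log2 fold change over the square root of F. Fold changes are Mettl3-ASO over ASO-Control. The script was tested on simulated data.

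Alternatives were median-ratio scaling, 2 other filters (a total of at least 10 counts, a mean of at least 5 FPKM), DESeq2 1.42.0, limma 3.58.1 on log2(FPKM + 1) and log2(FPKM + 0.1), no batch term, a replicate block, each batch alone, and each library left out. The labels do not say what replicate numbers mark; after removing the mean of each group and batch, same-numbered libraries correlated at 0.336, 0.336, 0.212, 0.212 and 0.186. Each exceeded 0.1, so the values with a replicate block stand beside the results they change; the main fit and the permutation test of Mettl3 have no such block. With 2 libraries a group, both untagged pairs have the same value by construction. All 8 pairs of replicates from the same batch differed by more than sampling noise (chi-square over degrees of freedom at least 24.7).

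Members, lists and tests were chosen with earlier results of these data known. Every member may be named. Values in each library are given for the called cytosolic non-J-protein members with the 6 smallest p, the 5 called ER and mitochondrial members with the smallest p, and for Hsf1, Hspa5, Hspa8, Hspa9, Hspd1, Hspa1a and Hspa1b; other members shown in this way, and Xbp1, Fkbp4 and Ahsa1, were picked after their values were seen. Called members of at least 2-fold change and the 3 smallest p of each partner list are named. Loci and exon overlaps came from GENCODE M21 (GRCm38), matched by symbol; shared windows are stretches of 50 bases found in transcripts of other genes. Promoters came from RefSeq (GRCm38.p6), and 73 of 89 members matched. Fragments carry no molecular identifiers.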

Additional observations from a re-analysis of the deposited data

Results flagged for a closer look

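In 9 of 142 groups of 5 libraries, 1 library lay far from the other 4 by Dixon's test (gap over range above 0.71); chance gives about 1 group in 20. In 7 of the 9 the library was Mettl3-ASO replicate 1. In that library Bag3 stood at 37.06 FPKM (other Mettl3-ASO libraries 14.1 to 18.1), Hspb8 at 12.42 (1.76 to 4.71), Dnaja3 at 24.57 (9.23 to 12.8), Dnajb2 at 15.39 (3.53 to 6.70) and Dnajc11 at 35.81 (11.5 to 17.3). It was low for Cct8, at 482.82 FPKM (677 to 731), and for Dnajc12, at 8.70 FPKM (17.9 to 21.2). Mettl3-ASO replicate 2 was high for Hspa13, at 16.85 FPKM (4.08 to 7.42). ASO-Control replicate 1 was high for Dnajb6, at 1061.59 FPKM (other ASO-Control libraries 802 to 874). The causes were not tested.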

How the results depend on the processing

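Of 41 called members, 34 kept their call in all 10 fits that left out 1 library, and 32 (14 higher, 18 lower) also in every one of the 8 other settings over all libraries that tested them. Leaving out 1 library gave 4194 to 4800 called genes, 16 to 21 members higher and 19 to 25 lower. In batch 2 alone 35 of the 41 were called. In the untagged libraries alone, with 2 libraries a group, 596 genes were called, with 3 members higher and 4 lower, and the cytosolic median was 0.12. With a mean of at least 5 FPKM, which tests fewer genes, the ER median was −0.19. The replicate block called 20 members higher and 27 lower; it added the calls given beside Cct8, Hspb1, Dnajb12, Dnajc3, Dnajc30 and Dnajc13 and changed no other. Among genes given a fold change here, those that turned round in some setting were 5 that were not called. Hsph1 was 0.055 at a mean of at least 5 FPKM, 0.018 and 0.017 with limma at pseudocounts of 1 and 0.1, 0.024 with no batch term and 0.16 in batch 2 alone. Cct7 was 0.041 at a mean of at least 5 FPKM, 0.018 with limma at either pseudocount and 0.12 in the untagged libraries. Stip1 was 0.031 in the untagged libraries and Dnajb6 0.0077 at a mean of at least 5 FPKM. With 1 library left out, Hsph1 ranged from −0.10 to 0.15, Cct7 from −0.093 to 0.062, Dnajb6 from −0.19 to 0.057 and Hspa13 from −0.076 to 0.37. The causes were not tested. A group-by-batch fit with median-ratio scaling, and levels of Mettl3 within batches, were added after seeing the data; the first called 0 genes, and Mettl3 was lower in both batches. Members under a few counts, such as Hspb9 and Hspb7, give no usable difference at this depth.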
